A study of Zea mays with 4 samples.

Results

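The probe sets described here are those of the maize lipid transfer protein genes plt2 (LOC542343) and PLTP. They were chosen by annotation, as every probe set whose single annotated gene is LOC542343 or PLTP. These are 2 of the 1108 genes that the annotation names, and 5 of the 17621 probe sets that are not controls, 1 for plt2 and 4 for PLTP. The genes were picked with earlier results of these data in view, among them a difference between the lines for plt2, so the differences between lines are given for them as a description, with no test. RNA of the inbred line F98902, which the labels call poorly digestible, was hybridised to 2 arrays, and RNA of Cm484, labelled as well digestible, to another 2. No treatment was applied to either line. By the labels, all plants were grown under glass with 14 h of light, at 22 °C in the day and 20 °C in the night, and were taken at the flowering stage, 24 h ahead of ovulation. On the Affymetrix maize array each probe set consists of several short oligonucleotides designed against 1 cluster of transcripts. The protocols name both stem and root as the tissue, so the organ is not stated as a fact. Each kind of digestibility is represented by 1 line, so it cannot be told apart from other differences between the lines. Nothing in the labels says that replicates came from separate plants, so the spread and p-values given may be technical.

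Lipid transfer proteins of plants are small, basic, secreted proteins held together by disulfide bonds between conserved cysteines. They enclose a hydrophobic cavity that takes up fatty acids and phospholipids, and were first recognised by their ability to move phospholipids between membranes in the test tube. In plants they are found mostly in epidermis and other surface layers, where they have been linked to the deposition of cutin and wax, and they form one of the families of pathogenesis-related proteins. plt2 and PLTP are both named as phospholipid transfer protein genes. The gene identifier behind PLTP is missing from the reference table used, in which PLTP stands as an older name of LOC103640727, also called plt1. That is a match by name only, so the platform's name PLTP is kept.

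The 5 probe sets carry different suffixes. By Affymetrix's naming, the ending _at alone marks probes taken as specific to 1 transcript, and _a_at marks probes for alternative transcripts of 1 gene. The ending _s_at marks probes shared by several transcripts, and _x_at marks sets in which some probes are the same as, or very like, other sequences. The plt2 probe set, Zm.714.1.A1_at, is of the first kind. PLTP has Zm.19.1.S1_at of the first kind, Zm.19.1.A1_a_at, Zm.19.2.S1_x_at and Zm.2085.1.S1_s_at. The last is annotated through another sequence record than both Zm.19.1 sets, and the probe sequences were not analysed here.

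The values are GCRMA signals on a log2 scale, and a value of 5 is used here as the detection value. The medians of the 4 arrays lay between 5.87 and 5.98, and 54.8% to 55.2% of probe sets reached 5 on each. The 10131 probe sets at 5 or more on at least 2 arrays were kept for the comparison of lines. Over these, Pearson's r between replicate arrays was 0.979 for F98902 and 0.982 for Cm484, and it lay between 0.765 and 0.790 for pairs of arrays across the lines. Replicate 2 of F98902 was made from 120.7 ng of RNA, against 312.4 to 416.8 ng for the other arrays. Its 5 detected control probe sets at the 5′ end of housekeeping transcripts had a median shift of -0.83 (log2) relative to the other 3 arrays. The same median was 0.86 for F98902 replicate 1, and 0.26 and -0.22 for Cm484 replicates 1 and 2. Of the 5 lipid transfer probe sets, 3 were kept, the 1 of plt2 and 2 of PLTP.

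plt2 gave a signal on all 4 arrays, with more of it in Cm484. Zm.714.1.A1_at read 5.53 and 5.67 (log2) on replicates 1 and 2 of F98902, and 9.31 and 7.49 on replicates 1 and 2 of Cm484. The F98902 arrays lay just above the detection value and close together, while both Cm484 arrays were higher and far from each other. The ranges of the lines did not overlap, and the closest pair of arrays across lines was 1.82 apart. The share of all kept probe sets whose ranges do not overlap was not counted, so nothing is read from this, here or for PLTP. The mean was 5.60 ± 0.10 in F98902 and 8.40 ± 1.28 in Cm484 (SD, n = 2 each), a difference F98902 minus Cm484 of -2.80 ± 0.58 (log2, SE of the fit), which is 6.95-fold. With Cm484 replicate 1 left out the difference was -1.89, and with Cm484 replicate 2 left out it was -3.71.

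The PLTP probe set Zm.2085.1.S1_s_at, whose probes are shared by several transcripts, went the same way. It read 7.40 and 7.03 (log2) in F98902, and 11.73 and 10.07 in Cm484. Both Cm484 arrays were again above both F98902 arrays, by at least 2.67. The means were 7.22 ± 0.27 in F98902 and 10.90 ± 1.17 in Cm484 (SD, n = 2 each), a difference of -3.68 ± 0.54 (SE), or 12.8-fold. Leaving out Cm484 replicate 1 gave -2.85, and leaving out Cm484 replicate 2 gave -4.51.

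A second PLTP probe set, Zm.19.2.S1_x_at, went the other way. It read 6.08 and 6.34 (log2) in F98902, and 5.24 and 3.45 in Cm484, so that 1 of 2 Cm484 arrays fell below the detection value. The ranges did not overlap, although F98902 replicate 1 and Cm484 replicate 1 were 0.84 apart. The means were 6.21 ± 0.18 in F98902 and 4.34 ± 1.27 in Cm484 (SD, n = 2 each), a difference of 1.87 ± 0.58 (SE). With the value under 5 set to 5, an alternative chosen after seeing the data, the difference was 1.09, or 2.13-fold. Without Cm484 replicate 2, the array below detection, it was 0.97, and without Cm484 replicate 1 it was 2.76, a value that rests on the undetected array.

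The remaining PLTP probe sets were below detection on all 4 arrays and were not tested. Zm.19.1.S1_at stayed between 1.90 and 1.94 (log2) on every array. Zm.19.1.A1_a_at read 2.53 and 2.36 in F98902, and 4.58 and 2.82 in Cm484. Its highest value, on Cm484 replicate 1, was still under 5, so no fold is given for either set.

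**Figure D1:**
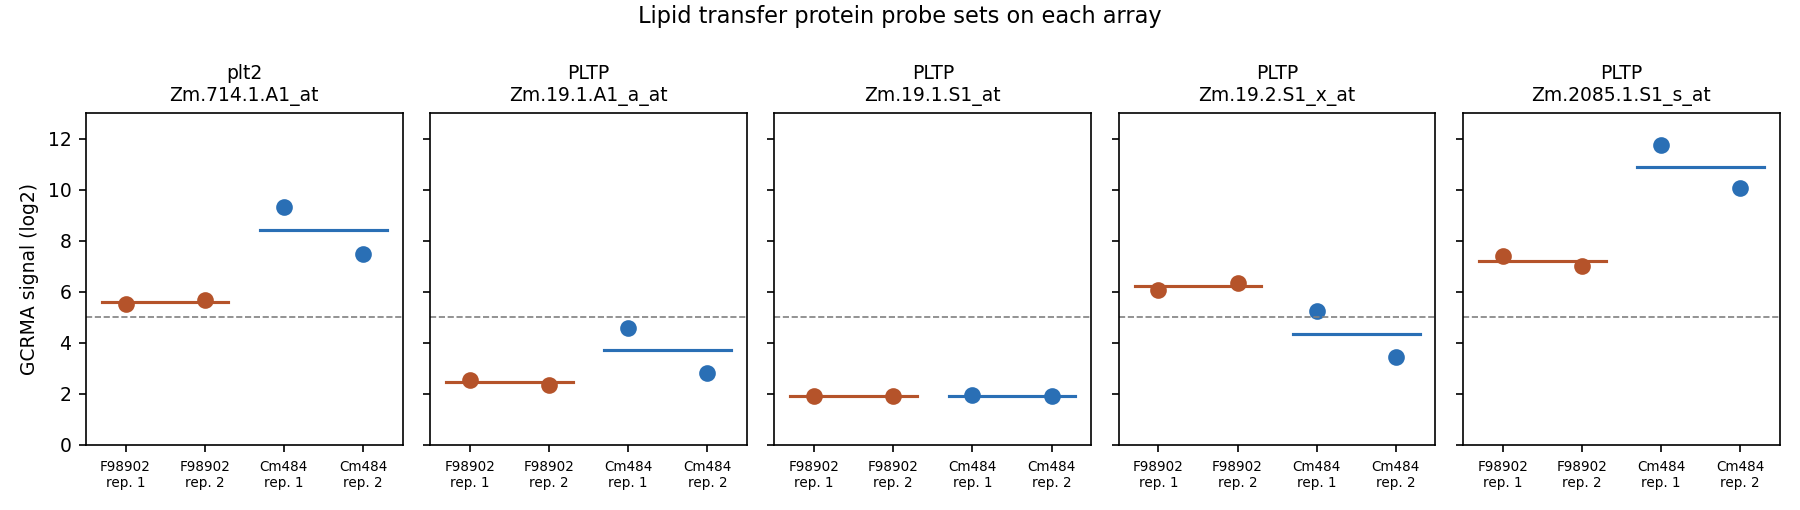
GCRMA signal (log2, vertical axis) of the 5 lipid transfer protein probe sets on each of the 4 arrays, F98902 in brown and Cm484 in blue; points are single arrays, bars are means of 2 arrays, and the dashed line is the detection value of 5. plt2 and PLTP Zm.2085.1.S1_s_at are higher on both Cm484 arrays, PLTP Zm.19.2.S1_x_at is higher on both F98902 arrays, and the other 2 PLTP sets stay under 5.

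The 2 kept probe sets of PLTP therefore differed in direction. Their differences between lines, -3.68 and 1.87, lay 5.55 apart on the log2 scale. The distance between the signals of Zm.19.2.S1_x_at and Zm.2085.1.S1_s_at varied with an SD of 0.45 between the F98902 arrays and 0.09 between the Cm484 arrays. The Cm484 value is not firm, because Zm.19.2.S1_x_at was below detection on Cm484 replicate 2. With values under 5 set to 5, the gaps between the Cm484 arrays were 0.24 for Zm.19.2.S1_x_at and 1.66 for Zm.2085.1.S1_s_at. Across the series, 100 genes had 2 or more kept probe sets, and the median spread of line differences within a gene was 0.26. PLTP had the second largest spread of these, after piip1. With values under 5 set to 5, the spread of PLTP was 4.77, again rank 2, after PP2C at 4.82 and above piip1 at 4.18. In 6 of the 100 genes, PLTP included, 1 probe set was higher in F98902 and another higher in Cm484 with ranges that did not overlap. The share of all kept probe sets with such ranges was not counted, so nothing is read from that number either. plt2 and Zm.2085.1.S1_s_at were 0.89 apart in their line differences, and the line difference of plt2 minus that of Zm.19.2.S1_x_at was -4.66. Which transcript each PLTP probe set detects in these lines was not tested.

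The lines differed at many probe sets. In a limma fit over the 10131 kept, with Benjamini-Hochberg adjustment, 34.9% were called at an adjusted p under 0.05, 17.7% higher in F98902 and 17.1% higher in Cm484. In that fit 2 of the 3 kept lipid transfer probe sets were called, plt2 and PLTP Zm.2085.1.S1_s_at, and Zm.19.2.S1_x_at was not. Since the genes were picked with this comparison in view, nothing is read from that count. plt2 missed the threshold when the filter was dropped and when F98902 replicate 1 or F98902 replicate 2 was left out, and Zm.19.2.S1_x_at passed it with either Cm484 array left out. In those fits the spread within a line comes from the F98902 pair alone, with the lone Cm484 array assumed to vary alike, and without Cm484 replicate 1 the remaining value lies below detection. In size, the difference of Zm.2085.1.S1_s_at was larger than that of 96.5% of kept probe sets, and that of plt2 larger than 93.6%. The difference of Zm.19.2.S1_x_at involves an undetected array, and with values under 5 set to 5 throughout it was larger than 80.6%. On that same scale the difference of Zm.2085.1.S1_s_at was larger than 98.6%, and that of plt2 larger than 96.8%. The median difference over all kept probe sets was -0.02. In bulk RNA such as this, fewer cells of a type and less RNA per cell cannot be told apart.

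**Figure D2:**
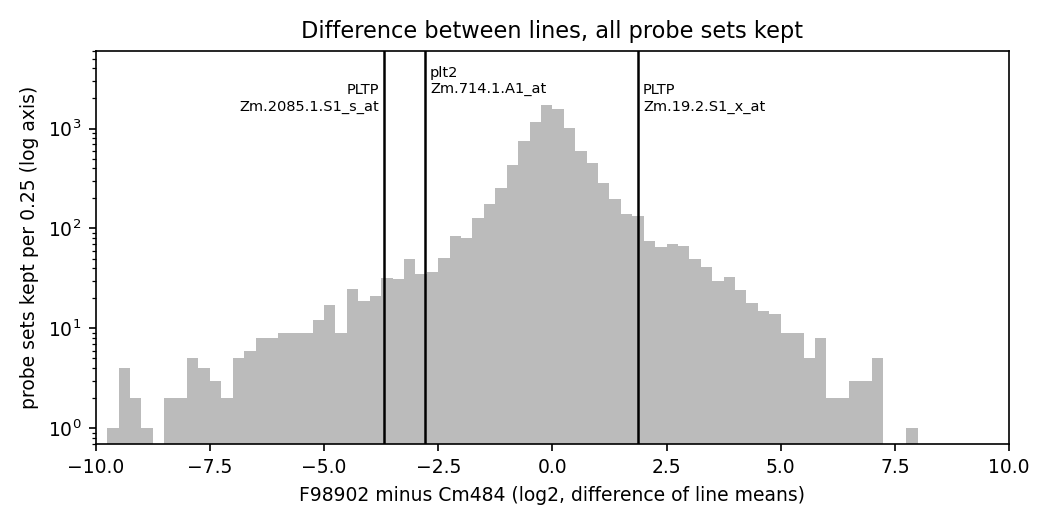
Difference between line means, F98902 minus Cm484 (log2, horizontal axis), for the 10131 probe sets kept, as a histogram with a logarithmic vertical axis; black lines mark the 3 lipid transfer protein probe sets kept. plt2 (-2.80) and PLTP Zm.2085.1.S1_s_at (-3.68) lie on the Cm484 side and PLTP Zm.19.2.S1_x_at (1.87) on the F98902 side.

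plt2 and PLTP Zm.2085.1.S1_s_at also shared a wide gap between the 2 arrays of Cm484, a measure that does not use the comparison of lines. Both were detected on both Cm484 arrays, and both were higher on replicate 1 than on replicate 2, by 1.82 (log2) for plt2 and 1.66 for Zm.2085.1.S1_s_at. Over all kept probe sets the median absolute gap between the Cm484 arrays was 0.19, and these gaps were larger than those of 99.6% and 99.4% of them. PLTP Zm.19.2.S1_x_at was also higher on replicate 1, by 1.79 as deposited, but replicate 2 lay below detection. With values under 5 set to 5 its gap was 0.24, larger than that of 60.9% of kept probe sets, so its size is not known beyond that. The 2 PLTP sets under 5 on all arrays give no gap. Only 88 kept probe sets had a Cm484 gap over 1.5 in either direction, 58 of them higher on replicate 1.

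Between the F98902 arrays none of the same probe sets had a gap over 1.5. The absolute gaps were 0.14 for plt2, 0.26 for Zm.19.2.S1_x_at and 0.38 for Zm.2085.1.S1_s_at, against a median of 0.21 over all kept probe sets. In that order they were larger than the gaps of 36.3%, 59.6% and 75.4% of kept probe sets. Gaps over 1.5 were about as common in F98902, with 96 kept probe sets, so plt2 and Zm.2085.1.S1_s_at had wide gaps in Cm484 and not in F98902. Whether probe sets with shared or similar probes read the same transcript on the Cm484 arrays was not tested.

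**Figure D3:**
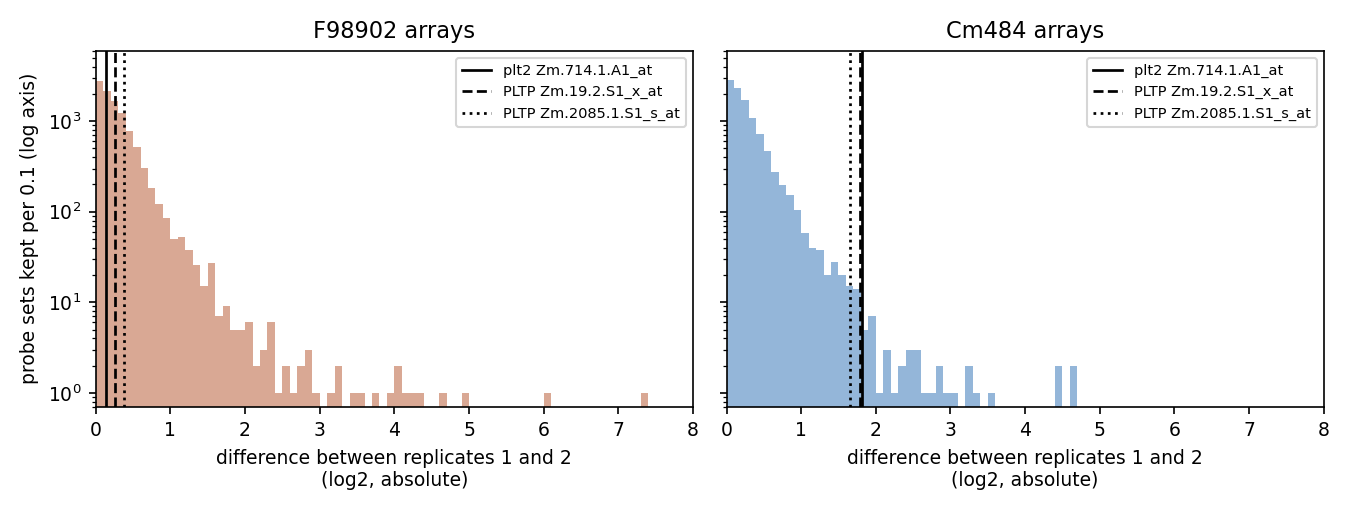
Absolute difference between replicates 1 and 2 (log2, horizontal axis) for the 10131 probe sets kept, F98902 on the left and Cm484 on the right, with logarithmic vertical axes; black lines mark the 3 lipid transfer protein probe sets kept. On the F98902 arrays they lie between 0.14 and 0.38, and on the Cm484 arrays between 1.66 and 1.82, where that of Zm.19.2.S1_x_at rests on a replicate below the detection value.

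The named genes with the most similar profiles were found by the root mean square distance between signals centred on their own mean over the 4 arrays, among 887 other kept probe sets with 1 gene. Where a gene lies below detection, its distance rests on values that carry little signal, so the order was also taken with values under 5 set to 5. Nearest to plt2 as deposited were expB8 (LOC542496), a beta-expansin that loosens cell walls, at a distance of 0.26 (log2), the plasma membrane aquaporin ZmPIP2-4 (LOC541890) at 0.33 and the beta-glucosidase ZmGlu1 (LOC542414) at 0.47. The median distance to plt2 was 1.54. expB8 had a gap between the Cm484 arrays in the same direction as plt2, with 5.05 and 4.81 in F98902, and 9.16 and 6.83 on Cm484 replicates 1 and 2. Then came LOC542505 and LOC542766, for which the tables give no descriptive name, at 0.54 and 0.55. ZmGlu1, LOC542505 and LOC542766 were below detection in F98902, and expB8 was so on F98902 replicate 2. With values under 5 set to 5, expB8 was again nearest, with its probe sets at 0.21 and 0.21. These were detected on 2 and 3 arrays, so their closeness rests partly on values set to 5. ZmPIP2-4, detected on all 4 arrays, stayed at 0.33, while ZmGlu1 was at rank 29.

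Of the genes near PLTP Zm.2085.1.S1_s_at, the cystatin gene zmc-II (LOC100101525), for an inhibitor of cysteine proteases, was detected on all 4 arrays and lay at a distance of 0.30 (log2). It read 8.79 and 8.03 in F98902, and 12.40 and 11.48 in Cm484. expB8, below detection on F98902 replicate 2, lay at 0.39. ZmGlu1 at 0.18, PEAMT at 0.43 and LOC542505 at 0.43 were below detection in F98902, so their distances are not firm. With values under 5 set to 5, zmc-II kept rank 2, behind the beta-expansin expB6 (LOC542566) at 0.26, which was also below detection in F98902, and ZmGlu1 was at rank 49.

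The profile of PLTP Zm.19.2.S1_x_at had other neighbours, at larger distances. They were the plastid glucose transporter gene pGlcT (LOC541809) at 0.49 (log2), the beta-tubulin gene TUBB2 at 0.52, the thaumatin-like defence gene pr5 (LOC542720) at 0.54, the cytokinin response regulator ZmRR4 (LOC541630) at 0.61 and LOC541947 at 0.61. pr5 read 10.53 and 9.75 in F98902, and 8.60 and 7.93 in Cm484. With the undetected value of Zm.19.2.S1_x_at set to 5, none of these 5 stayed among the nearest 5, and the closest of them, LOC541947, had rank 23. The likeness is over 4 arrays in all, 2 of each line, and says nothing of shared function.

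**Figure D4:**
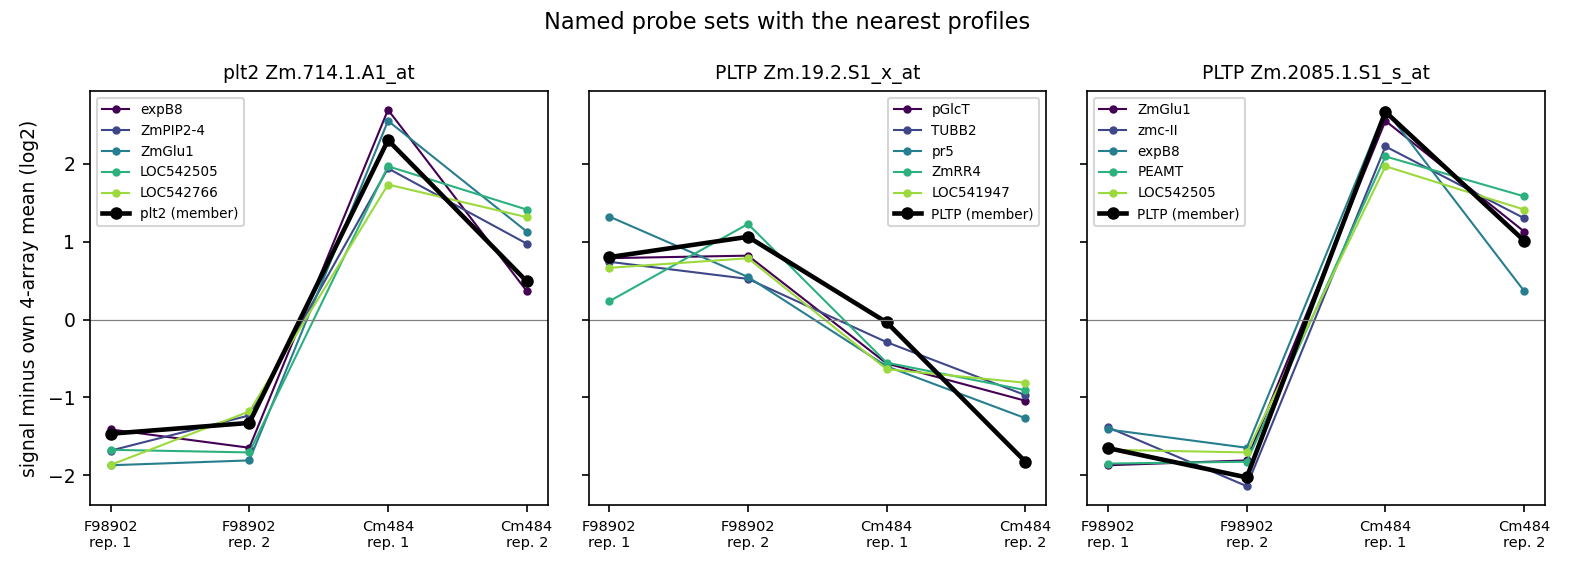
Signal minus its own mean over the 4 arrays (log2, vertical axis) for each kept lipid transfer protein probe set (black) and the 5 named probe sets nearest to it (colours); lines join the arrays of 1 probe set. plt2 and PLTP Zm.2085.1.S1_s_at share a profile that is low in F98902 and highest on Cm484 replicate 1, and PLTP Zm.19.2.S1_x_at is lowest on Cm484 replicate 2.

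Genes of the processes that lipid transfer proteins are linked to were counted in the same limma fit. In that fit 34.9% of all kept probe sets were called, and no list was tested against that share. Of the wax and cuticle list, 1 of 6 probe sets was kept, and it was not called. It belonged to gl8 (LOC542359), a reductase of very long chain fatty acid synthesis, with 9.05 and 8.58 (log2) in F98902, and 8.59 and 8.69 in Cm484, a difference of 0.18 ± 0.21 (SE, limma adjusted p = 0.565). The 3 probe sets of gl1, and those of gl15 and fae1, read at most 3.62 on any array. The list for other lipid transfer names matched 4 probe sets, all of bap genes, which are antifungal proteins of the basal endosperm and not lipid transfer proteins. All 4 were below detection, so no further lipid transfer gene could be set beside plt2 and PLTP.

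In the list of acyl and membrane lipid genes, 8 of 9 probe sets were kept, with 2 called higher in F98902, 1 called higher in Cm484, 5 uncalled and a median difference of 0.03. FAD8, a plastid fatty acid desaturase gene, read 9.18 and 9.62 (log2) in F98902, and 7.30 and 7.83 in Cm484. Its difference was 1.83 ± 0.26 (SE, limma adjusted p = 0.00528), and both F98902 arrays were above both Cm484 arrays. PEAMT, the phosphoethanolamine methyltransferase gene of choline synthesis, was below detection in F98902, with 2.40 and 2.43, and read 6.35 and 5.84 in Cm484. It was at least 2.14-fold higher in Cm484 (limma adjusted p = 0.000288), taking 5 as the F98902 level. The phospholipase D gene PLD1 (LOC542702) was higher in F98902 by 0.66 ± 0.16 (SE, limma adjusted p = 0.0287), a call lost under the replicate block and with any 1 array left out. Both probe sets of ACC1 (LOC542319), an acetyl-CoA carboxylase name, lay between -0.19 and -0.15 and were not called.

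Among pathogenesis-related genes, 1 of 3 kept probe sets was called, out of 6 on the array. This was pr5, higher in F98902 by 1.87 ± 0.35 (SE, limma adjusted p = 0.0129), which missed the threshold without the filter or without Cm484 replicate 2. The wound-induced gene wip1 (LOC542729) read 8.72 and 7.15 (log2) in F98902, and 10.77 and 9.29 in Cm484, a difference of -2.10 ± 0.68 that was not called (SE, limma adjusted p = 0.0668). The chitinase name chn1 (LOC542525) gave -0.72 ± 0.50 (SE, limma adjusted p = 0.32).

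Markers of the outer cell layer, where lipid transfer proteins are best known, were mostly below detection. Of 8 probe sets 2 were kept and neither was called. dek1 (LOC542509), a membrane protein needed for epidermis and aleurone, differed by 0.52 ± 0.16 (SE, limma adjusted p = 0.0575), and the homeodomain gene ocl3 (LOC542008) by 0.41 ± 0.49 (SE, limma adjusted p = 0.565). The probe sets of ocl1, ocl2, ocl4, ocl5, cr4 and gl15 read at most 3.75 on any array. The summed signal of the list, in log2, was 8.11 and 8.20 in F98902, and 7.60 and 7.92 in Cm484. Most of that sum was dek1, with 7.66 and 7.78 in F98902, and 7.13 and 7.27 in Cm484. The sum is thus no measure of the outer cell layer, whose part in the lipid transfer values was not tested.

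Other tissue markers differed between the lines beside plt2 and PLTP. Of 17 kept green tissue probe sets, 10 were called higher in F98902. They included 3 probe sets of PPDK, the one with the smallest p at 3.60 ± 0.19 (SE, limma adjusted p = 0.000202) and the one with the largest difference at 3.91 ± 0.24 (SE, limma adjusted p = 0.000316), while another kept set of PPDK lay at 0.01 and was not called. They also included 3 probe sets of lhcb6 (LOC542321), so the 10 come from fewer genes. Another was psad1 at 2.30 ± 0.18 (SE, limma adjusted p = 0.000742). Also among them were psaH, a call lost without F98902 replicate 1 or Cm484 replicate 1, and psbs1, a call lost without the filter. In Cm484, 1 green tissue probe set was called higher, that of lhcb5 (LOC542716) at -0.94 ± 0.19 (SE, limma adjusted p = 0.0167). This call was lost without either F98902 array or without Cm484 replicate 2. The summed signal of the green tissue list was 15.91 and 15.86 in F98902, and 14.95 and 15.18 in Cm484. The root-preferential gene zrp4, the 1 kept of 3 root markers, was below detection in F98902 and at least 13.1-fold higher in Cm484 (limma adjusted p = 5.6e-05), while RCP1 and RCP2, also in that list by their symbols, read at most 2.09 on any array. Of 6 kept vascular markers 1 was called, ZMK2 at 0.56 ± 0.16 (SE, limma adjusted p = 0.044). Of 4 kept pollen and seed markers out of 22, 1 was called, mez1 at -0.52 ± 0.15 (SE, limma adjusted p = 0.0489). As a Polycomb gene name, mez1 is in that list by its symbol, so its call is not read as one of pollen or seed. The calls of ZMK2 and mez1 were lost with any 1 array left out. The part of tissue makeup in the lipid transfer values was not tested.

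**Figure D5:**
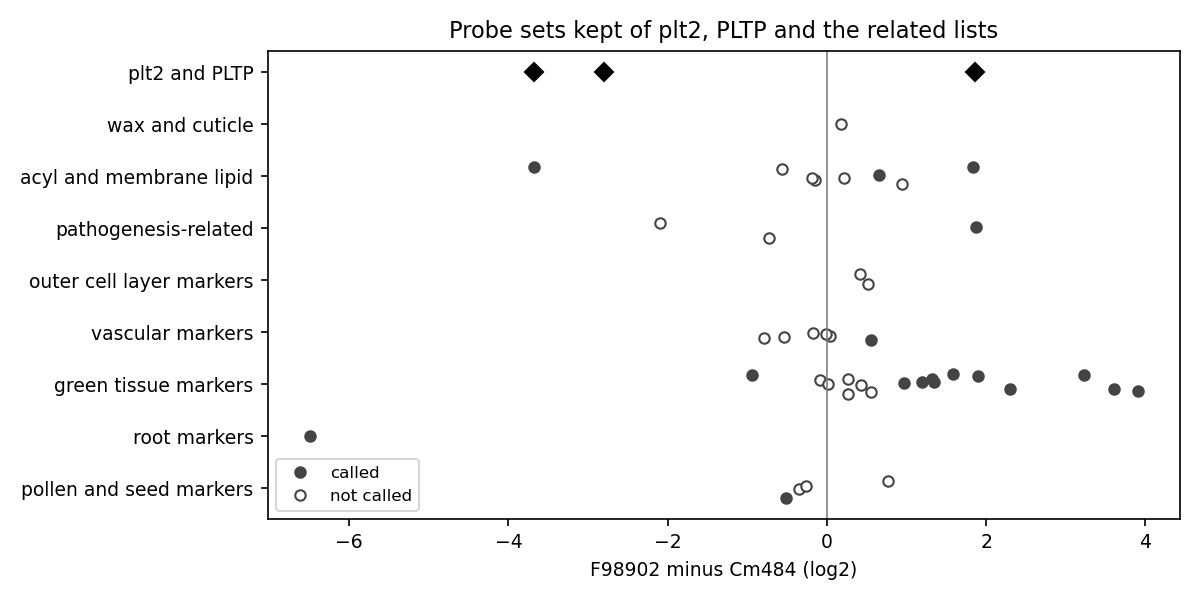
Difference F98902 minus Cm484 (log2, horizontal axis) of the kept probe sets of plt2 and PLTP (diamonds, top row) and of the related gene lists (circles, filled where called by limma at an adjusted p under 0.05). The single kept wax and cuticle probe set lies near 0, acyl and membrane lipid genes lie on both sides, and most green tissue markers lie on the F98902 side.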

How the data were processed

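One table with log2 values of all 4 arrays was deposited. Per the submitters' processing notes it was made with GCRMA in R 2.6.2, which corrects background by probe sequence, normalizes by quantiles and summarises each probe set. Nothing further on these steps is stated in the sources used here. The values were used as deposited. The number of arrays limits the precision. Signals depend on how well each line's transcripts match the probes, so probe sets were not ranked by level within an array. Distances between probe sets and summed list signals were set side by side across arrays only, and carry the same limit.

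Genes were named from the annotation of the platform and updated by gene identifier (reference assembly Zm-B73-REFERENCE-NAM-5.0). Among the 17621 probe sets left after 113 controls, 1452 had 1 gene, 1 had several and 16168 had none there. No coordinates or sequences are given.

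Probe sets at 5 or more (log2) on at least 2 of 4 arrays entered a limma fit (version 3.58.1, R 4.3.3; lmFit, eBayes, F98902 minus Cm484, no covariates, two-sided, Benjamini-Hochberg adjustment, called under 0.05). The fit was tested on simulated data. Lists were patterns of gene symbols. The members and lists were chosen with earlier results of these data known. Named were all members, up to 4 called probe sets of a list (in a list without calls, the 2 of lowest p) and the 5 probe sets nearest each member. Genes named beyond this rule were chosen after their values were seen. Alternatives changed the filter, normalization, variance prior or replicate block, or left out an array.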

Additional observations from a re-analysis of the deposited data

How the results depend on the processing

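The directions of the line differences of plt2, PLTP Zm.2085.1.S1_s_at and PLTP Zm.19.2.S1_x_at held under quantile normalization, median centring, values under 5 set to 5 and with each array left out. The ranges with 1 array left out were -3.71 to -1.89, -4.51 to -2.85 and 0.97 to 2.76 (log2). Of the 3 kept lipid transfer probe sets, 2 were called, beside 34.9% of all kept. With no filter 1 of the 5 was called, beside 3093 of all 17621. With 1 array left out the calls changed as given above, with the limits named there. Nothing is read from these counts. The number of all probe sets called, 3533, was 2205 to 2706 with 1 array left out, the lowest without Cm484 replicate 1, and 2339 without F98902 replicate 2. With the replicate number as a block it was 2983, and the lipid transfer calls still numbered 2. The numbers are not stated to pair the samples, and the differences between replicates 1 and 2 correlated at r = -0.02 between the lines. The percentiles of the Cm484 gaps lay between 99.4% and 99.7% with no filter or quantile normalization. With values under 5 set to 5 that of PLTP Zm.19.2.S1_x_at was 60.9%, because Cm484 replicate 2 is below detection, and those of plt2 and Zm.2085.1.S1_s_at were 99.7% and 99.5%. Calls in the related lists are few, and most lists gained or lost 1 call under some alternative. Low signals limit what can be said of the PLTP probe sets under 5.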

Other observations

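The gap between the Cm484 arrays seen for plt2 was shared with probe sets of a small group of named genes, picked here after their values were seen. Of the 58 kept probe sets more than 1.5 (log2) higher on Cm484 replicate 1 than on replicate 2, 36 were detected on both Cm484 arrays and 11 had 1 annotated gene, of which 3 were those of plt2 and PLTP, Zm.19.2.S1_x_at with its undetected replicate included. The other 8 belonged to 6 genes. They were piip1 (LOC542597), with 3 probe sets and the widest gap of 4.70, the alpha-expansin expa1 (LOC541904) at 2.64, expB8 at 2.33, asr1 (LOC542304) at 1.89, the vacuolar acid invertase ivr2 (LOC542324) at 1.54 and the glutathione S-transferase gst30 (LOC541841), which was below detection on both Cm484 arrays, so that its gap has no firm size. piip1 had 4 kept probe sets in all, and expB8 and asr1 had 2 each, so each of these genes also had a kept set outside the 58. In the opposite direction, more than 1.5 higher on Cm484 replicate 2, there was 1 named probe set.

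These genes fell on both sides of the comparison of lines. Of the 8 probe sets with the gap, 2 had the higher mean in F98902, those of asr1 and gst30, and 6 had the higher mean in Cm484. asr1 read 14.50 and 14.68 in F98902, and 11.19 and 9.30 on Cm484 replicates 1 and 2. Over all 58 probe sets, 33 had the higher mean in F98902 and 25 in Cm484. The source of the gap was not tested.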
